A study of Mus musculus with 16 samples.

Results

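Imprinted growth genes are a set of genes, expressed mainly from the copy inherited from 1 parent, that set body and organ size. 10 of them were followed here: Dlk1, Meg3, Igf2, H19, Cdkn1c, Peg3, Mest, Grb10, Plagl1 and Ndn. They were found by matching the Ensembl identifiers of the deposited tables to these symbols, and all 10 were among the 55357 gene rows of the skin table and the 56953 of the stem cell table. The set was chosen by the measured count of Dlk1, which was low in the mutant stem cells. The stem cell difference of Dlk1 is therefore given as a description with no test, and the comparison asks whether the other 9 genes differed as well.

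The 16 libraries are bulk RNA sequencing of C57BL/6 mice. 10 come from poly-A RNA of whole back skin (5 control and 5 labelled GRK2 eKO, all given as 8 months of age), and 6 from hair follicle stem cells (HFSC), bulge cells sorted as CD34+ and α6-integrin+ (3 control and 3 GRK2 eKO). The HFSC labels state 18 months, whereas the design text states 8 months for both kinds of sample, so the age of the HFSC animals is not settled. GRK2 is a kinase that phosphorylates activated G protein-coupled receptors. What eKO stands for, the promoter that drives the deletion, the alleles of the controls, the sex of the animals and any preparation batch are not given in the sources used here, and nothing in them says that each library is a separate animal, so p-values measure the spread between libraries.

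In imprinted loci, methylation laid down in the egg or the sperm keeps 1 parental copy silent. By and large, paternally expressed members such as Igf2, Dlk1, Peg3, Mest and Plagl1 favour growth, and maternally expressed members such as H19, Cdkn1c and Grb10 restrain it. Many of these genes are high in the embryo, fall after birth and persist in some adult stem cell pools. The tables give 1 total per gene and do not separate the parental copies.

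Dlk1 encodes a Delta-like transmembrane protein (preadipocyte factor), and Meg3 is a maternally expressed long noncoding RNA of the same imprinted locus. The 250 bases before their annotated starts are shown because Dlk1 carries the HFSC difference and Meg3, its neighbour, was listed at 0 in every HFSC library. Both are from RefSeq, build GRCm38.p6, plus strand, written 5′ to 3′, with each CG dinucleotide, the site of DNA methylation, in capitals. The Dlk1 window is chr12:109452573-109452822 and that of Meg3, the first of 2 annotated starts, is chr12:109540746-109540995.
Dlk1: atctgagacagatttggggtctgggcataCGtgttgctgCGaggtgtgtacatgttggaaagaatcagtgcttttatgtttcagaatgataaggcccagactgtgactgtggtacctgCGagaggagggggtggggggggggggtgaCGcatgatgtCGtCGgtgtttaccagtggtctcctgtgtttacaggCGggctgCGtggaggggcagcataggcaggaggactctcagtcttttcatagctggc
Meg3: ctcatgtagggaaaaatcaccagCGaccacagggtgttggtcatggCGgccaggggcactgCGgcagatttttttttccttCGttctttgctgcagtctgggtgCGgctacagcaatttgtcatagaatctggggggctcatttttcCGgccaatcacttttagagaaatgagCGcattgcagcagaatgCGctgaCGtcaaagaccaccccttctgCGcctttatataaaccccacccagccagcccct
The Dlk1 window holds 8 CG dinucleotides, a number reached by 43.0% of the 32841 windows in the RefSeq table (median 6), and the Meg3 window holds 10, reached by 37.8%. TATAAA, searched on both strands, is in the Meg3 window and not in that of Dlk1, and 12.4% of all windows hold it. Of the members, 8 of 10 had a window in the table. The first of 2 Grb10 windows was the richest in CG, with 40 (reached by 1.3% of windows). No methylation was measured in these samples.

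Values below are normalised counts, that is, gene read counts divided by 1 size factor per library, and log2 fold changes are eKO over control on the log2(value + 1) scale. Reads in genes were 8213632 to 16383486 per skin library and 6428488 to 9387378 per HFSC library. The normalised count of Grk2 was 1298 ± 144 in control and 1110 ± 93.8 in eKO skin (SD, n = 5 and 5; limma adjusted p = 0.343) and 135 ± 12.0 against 114 ± 8.68 in HFSC (n = 3 and 3; limma adjusted p = 0.501), so the whole-gene count did not separate the labels; it covers any exons that were not deleted. The HFSC libraries carried bulge markers such as Cd34 (1157 to 1323) and Krt15 in all 6, but 3 of 10 bulge genes rose and 1 fell. Of all 13784 genes tested in HFSC, 10.7% rose and 8.74% fell, and the counts for each list below stand against these shares. Lgr5, another bulge marker, fell by 0.94 on the log2 scale (7251 to 7470 in control, 3654 to 3978 in eKO). Itga6, the gene of the α6-integrin used for the sort, was at 2047 to 2311 in control and 3141 to 3290 in eKO. Krt5 (30680 to 31810 against 41560 to 49920) and Krt14 (9424 to 10100 against 21720 to 25740) were higher in eKO as well. Other cell type markers moved with the HFSC genotype: the summed normalised count of 9 endothelial genes was 14.7 to 44.0 in control and 1046 to 1270 in eKO libraries (7 of 8 tested rose). The corresponding sums were 2927 to 3077 against 12140 to 12970 for sebaceous genes (5 of 6 rose), 2645 to 4481 against 16700 to 17510 for differentiated epidermis (5 of 7 rose, 1 fell) and 585 to 646 against 2207 to 2438 for hair matrix (6 of 7 rose). Leukocyte genes summed to 193.5 to 235 against 844 to 1516 (1 of 3 rose, 1 fell). The gene that rose was Cd74 (121.7 to 157.8 in control, 787.1 to 1442 in eKO), which made up most of the eKO sum. Lyz2 fell (44.18 to 49.99 against 1.065 to 19.71), and Ptprc was not called (log2 fold change -0.2), so the list did not rise as a whole. Of the fibroblast genes Thy1 and Dcn rose, and the 5 others summed to 131 to 156 in control and 58.6 to 106 in eKO, with Lum at 0 in all 6 libraries. Some lists did not rise. Dermal papilla genes summed to 123 to 154 in control and 95.4 to 116 in eKO (1 of 3 rose, 2 fell). Melanocyte genes summed to 191.5 to 253.5 against 141.7 to 174.4 and Schwann cell genes to 309 to 390 against 221 to 395 (0 of 3 called in each). 4 Y-linked genes summed to 2340 to 2476 in control and 704 to 831 in eKO HFSC (4 of 4 fell), so genotype cannot be told apart from these differences in any HFSC value below. In skin, 2 libraries had almost no Y-linked reads, control 5 (sum 1.9) and eKO 3 (0.64).

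In HFSC, Dlk1 was the member with a large difference. Its normalised count was 89.8, 64.2 and 99.0 in the 3 control libraries and 0, 2.19 and 3.20 in the 3 eKO libraries. The groups did not overlap, and every eKO library held 3 reads or fewer. The mean was 84.3 ± 18.0 in control and 1.80 ± 1.63 in eKO (SD, n = 3 and 3). Pooled over libraries, 250 control reads stood against 5 eKO reads, 1.86% of the control level. In bulk samples, fewer cells expressing a gene and less RNA per cell cannot be told apart.

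In whole skin Dlk1 was near the limit of detection and showed no such difference. Control libraries 1 to 5 held 1.89, 3.37, 2.09, 2.80 and 3.80 normalised counts, and the eKO libraries 8.91, 0.98, 0.64, 5.62 and 2.93. The eKO values reached both below and above all control values. The mean log2 difference was 0.05 (exact permutation test over 252 splits, two-sided p = 0.952, smallest possible p 0.00794). In RPM, reads scaled to library size, Dlk1 was at 0.243 ± 0.0769 in control skin (n = 5) and 12.5 ± 2.72 in control HFSC (n = 3), a contrast of separately prepared tables that was not tested.

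**Figure D1:**
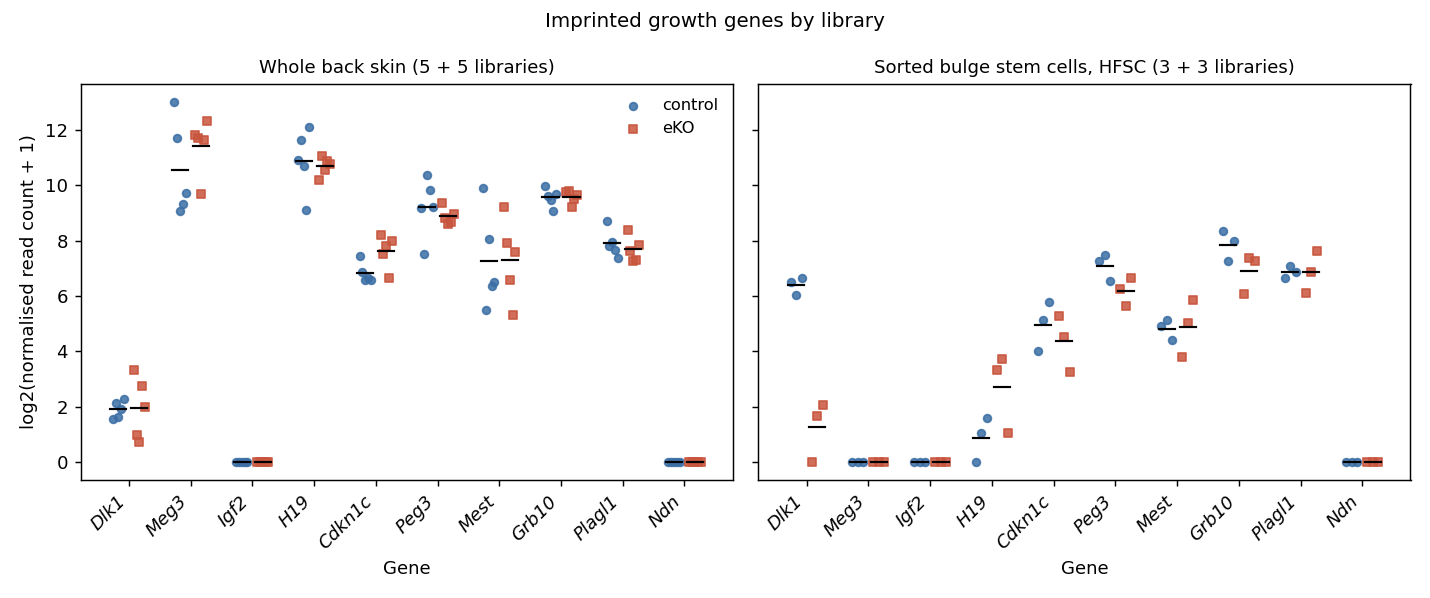
Normalised counts of the 10 genes on a log2(value + 1) axis in skin (left; 5 control and 5 eKO libraries) and HFSC (right; 3 and 3), with 1 point per library and bars at the group means of the plotted values. Dlk1 separates the HFSC groups (64.2 or more in control, 3.20 or less in eKO), whereas the groups overlap for every other member in both tissues.

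Meg3 could not be compared with Dlk1 in the same cells. It was listed at 0 in all 6 HFSC libraries, as were Rtl1, Rian and Mirg, 3 further genes of the locus. Not every other gene of the locus was at 0. Begain held 29.45 normalised counts or less in control and 39.41 or more in eKO HFSC libraries. Its groups did not overlap, and its log2 fold change of 1.15 was opposite in sign to that of Dlk1. It did not pass the test. Dio3 held 12 reads or fewer in each HFSC library. In skin Meg3 was abundant and uneven: control libraries held 8294, 3356, 529, 632 and 838 normalised counts, and eKO libraries 3604, 3337, 830, 3140 and 5064. The ranges overlapped, with the highest and the lowest library both in the control group. The log2 fold change was 0.87 (SE 0.77, 95% interval -0.83 to 2.57, limma adjusted p = 0.661). It was 0.21 with edgeR, 0.22 with DESeq2 and 0.49 (without control 3) to 1.48 (without control 1) with 1 library left out.

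The skin libraries fell into 2 sets by Meg3, and Rian, Mirg and Rtl1 of the same locus went with it. The largest gap spanned a share of 0.48 of the log2 range and left 4 libraries below it (control 3, 4 and 5 and eKO 3) and 6 above. Rian, a maternally expressed noncoding RNA that hosts small nucleolar RNAs, was at 82.5 to 92.4 in the 4 low libraries and at 469 to 1098 in the 6 others. Mirg, a maternally expressed microRNA host, was at 14.8 to 25.1 against 64.6 to 294. Rtl1, a retrotransposon-derived gene expressed from the paternal copy, was at 6.54 to 10.9 against 23.6 to 100.3. A maternally expressed antisense RNA lies over Rtl1, and since the treatment of strand is not given in the sources used here, the 2 cannot be told apart. Dio3, a thyroid hormone-inactivating enzyme at the far end of the locus, was at 10.4 to 144 in the 4 low libraries and at 0 to 50.6 in the others.

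Because of the gap, relations with genes of the locus are given only within the 6 libraries above it. Pearson's r with Meg3 on the log2 scale was 0.962 for Rian (exact permutation p = 0.0208), 0.924 for Rtl1 (exact permutation p = 0.00694), 0.797 for Mirg (exact permutation p = 0.1) and -0.846 for Dio3 (exact permutation p = 0.025), and with 6 libraries the 2 farthest could not be left out. These relations were chosen after the values were seen and the p-values are not adjusted. The fibroblast marker list moved with Meg3. Its mean log2 value was 11.81 to 12.51 in the 4 low libraries and 13.16 to 13.92 in the 6 others (r within the 6 = 0.844, exact permutation p = 0.0208). Other lists went with Meg3 over all 10 libraries. The hair matrix list had r = -0.775 (permutation adjusted p = 0.131). Centred on genotype means it was -0.827 (permutation adjusted p = 0.039). The leukocyte list had rho = 0.903 (permutation adjusted p = 0.0249) and r = 0.749 (permutation adjusted p = 0.0543). Control 5 and eKO 3, the libraries with almost no Y-linked reads, were both in the low set. The part of these differences in the result was not tested.

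**Figure D2:**
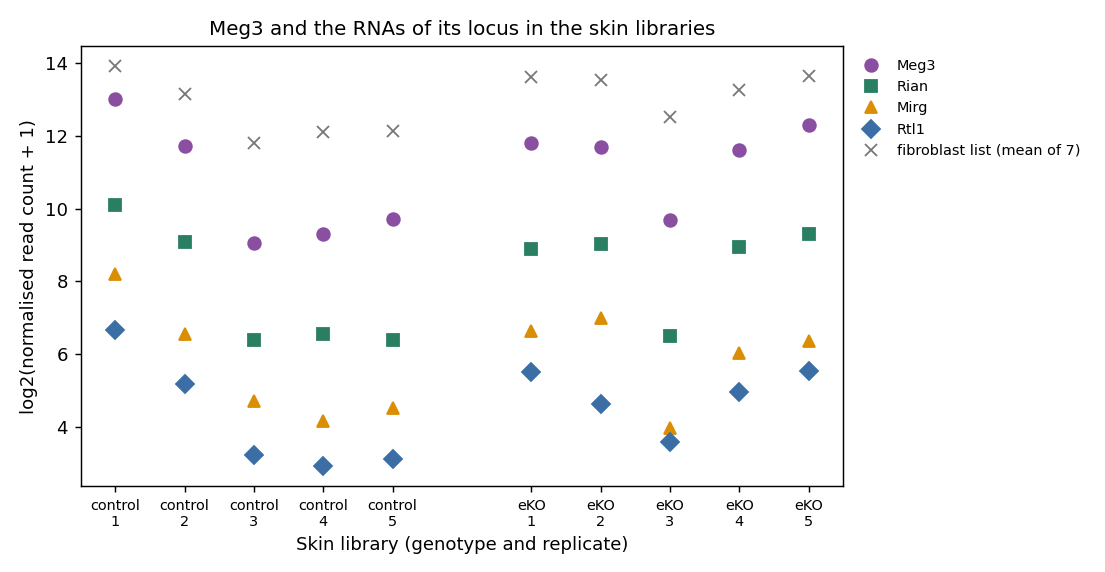
log2(normalised count + 1) of Meg3, Rian, Mirg and Rtl1 and the mean log2 value of 7 fibroblast markers in each of the 10 skin libraries. Control 3, 4 and 5 and eKO 3 lie lowest for all 4 RNAs of the locus and for the fibroblast list.

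Igf2, the fetal insulin-like growth factor, was listed at 0 in all 16 libraries and gave no comparison. In the GENCODE M21 annotation 99.9% of its exon bases lie within the span of other genes. Of the 1446 protein-coding genes with every exon base within another gene's span, 80.2% were listed at 0 in all 16 libraries. The share was 18.7% of the 14009 with no such overlap. Igf2, at 99.9%, lies just outside the first class. Since the annotation and counting settings behind the values are not given, the cause of the Igf2 zero was not tested. Ndn, a paternally expressed growth-restraining protein of the MAGE family, has 100% of its exon bases inside the span of Gm32061, and was also listed at 0 in all 16. Of 57 further imprinted genes, 12 were listed at 0 throughout, and 11 of these overlap other genes over most of their exon bases (79.0% to 100%), with Ins2 the exception at 0%. Commd1, another of the 57, has 95.1% of its exon bases within other spans and was not at 0 (5.33 to 12.1 in HFSC).

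H19, the maternally expressed noncoding RNA next to Igf2, was abundant in skin and nearly absent from HFSC. Skin control libraries held 1925, 3190, 1647, 548 and 4434 normalised counts, and eKO libraries 1169, 2129, 1495, 1871 and 1748. All eKO values lay within the control range. The log2 fold change was -0.20 (SE 0.47, limma adjusted p = 0.879), and its sign turned without control 5, the highest library (0.10). In HFSC, H19 was at 0, 1.05 and 2.00 in control and 9.10, 12.1 and 1.07 in eKO libraries, overlapping and too low to be tested.

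Cdkn1c, the cyclin-dependent kinase inhibitor p57, was the member nearest to passing in skin, and did not pass. Its normalised count was 172, 115, 94.0, 99.0 and 94.1 in control skin and 291, 182, 225, 99.2 and 254 in eKO skin. 4 of 5 eKO libraries lay above all controls, and eKO 4 lay among them. On the log2 scale eKO exceeded control by 0.82 (SE 0.29, 95% interval 0.18 to 1.45; limma adjusted p = 0.232). The sebaceous marker list also differed between the skin groups, with a mean log2 value of 9.72 to 10.94 in control and 11.35 to 11.85 in eKO libraries, and its part in the result was not tested. In HFSC the control libraries held 15.0, 33.7 and 54.0 normalised counts of Cdkn1c and the eKO libraries 37.9, 21.9 and 8.52. The ranges overlapped, with a log2 value of -0.61 for eKO over control (SE 0.64, limma adjusted p = 0.544); it ran from -1.10 without control 1 to -0.06 without eKO 3. In the annotation 43.3% of the exon bases of Cdkn1c lie within the span of Gm44732.

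Grb10, an adaptor that dampens insulin and IGF receptor signalling, was level in skin and lower on average in HFSC without passing the test. Its HFSC normalised count was 320, 150 and 252 in control and 66.0, 166 and 151 in eKO libraries. eKO 2 and 3 lay just above control 2, an overlap of the groups by these libraries. On the log2 scale the change was -0.95 (SE 0.35, 95% interval -1.72 to -0.19; limma adjusted p = 0.0781). With 1 library left out it ran from -1.26 (without control 2) to -0.54 (without eKO 1). DESeq2 on the recovered reads called it (log2 fold change -0.92, adjusted p = 0.0437), and edgeR did not (-0.92, adjusted p = 0.0762). In skin, Grb10 ranged from 537 to 1008 in control (median 779) and from 589 to 890 in eKO libraries (median 794), with a log2 change of 0.01 (SE 0.17; adjusted p = 0.982 with limma).

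Peg3, a paternally expressed zinc finger protein, gave a similar HFSC value. The control libraries held 151, 179 and 91.0 normalised counts, and the eKO libraries 75.1, 48.2 and 99.1. Control 3 lay below eKO 3. The change was -0.91 on the log2 scale (SE 0.34, 95% interval -1.65 to -0.18; limma adjusted p = 0.0776). It passed without control 3 (-1.20, limma adjusted p = 0.0491). In skin Peg3 was at 180 to 1322 in control (median 585) and 385 to 655 in eKO (median 447), with a log2 change of -0.34 (SE 0.44; adjusted p = 0.777 with limma).

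Mest, a paternally expressed protein of the hydrolase fold, and Plagl1, a paternally expressed zinc finger transcription factor also called Zac1, did not pass the test in either tissue. HFSC libraries held 28.9, 33.7 and 20 normalised counts of Mest in control and 12.9, 31.8 and 56.5 in eKO, a log2 change of 0.09 (SE 0.56; adjusted p = 0.933 with limma). Plagl1 was at 99.7, 134 and 114 in control and 67.5, 115 and 196 in eKO HFSC, a log2 change of 0.0023 (SE 0.34; adjusted p = 0.998 with limma). For both genes the 3 eKO values spread to either side of the controls. In skin, Mest spanned 43.8 to 948 in control (median 90.3) and 38.4 to 586 in eKO libraries (median 189), with a log2 change of 0.05 (SE 0.88; adjusted p = 0.987 with limma). Skin Plagl1 spanned 163 to 420 in control (median 221) and 152 to 333 in eKO libraries (median 194), with a log2 change of -0.22 (SE 0.28; adjusted p = 0.767 with limma). The 95% intervals still allow changes of 0.461-fold to 2.45-fold for Mest and 0.599-fold to 1.68-fold for Plagl1 in HFSC.

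The threshold for a call was an adjusted p of 0.05 over all genes tested (Benjamini-Hochberg), and Dlk1 was left out of the HFSC counts. In HFSC, limma called 0 of the 5 other members tested (Cdkn1c, Peg3, Mest, Grb10 and Plagl1), against 19.4% of all 13784 genes tested. 2 of the 5 had an unadjusted limma p under 0.05, against 4524 of the 13784 genes. edgeR called 0 of the 5 and DESeq2 called 1, against 2609 and 3016 of the 13784 genes. No other member had groups free of overlap, against 36.3% of genes tested in HFSC and 4.18% in skin. In skin, limma called 0 of 7 members tested, against 0.374% of 16589 genes. 1 of the 7 had an unadjusted limma p under 0.05, against 2348 of the 16589 genes. edgeR and DESeq2 called 0 of the 7, against 54 and 656 of the 16589 genes.

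**Figure D3:**
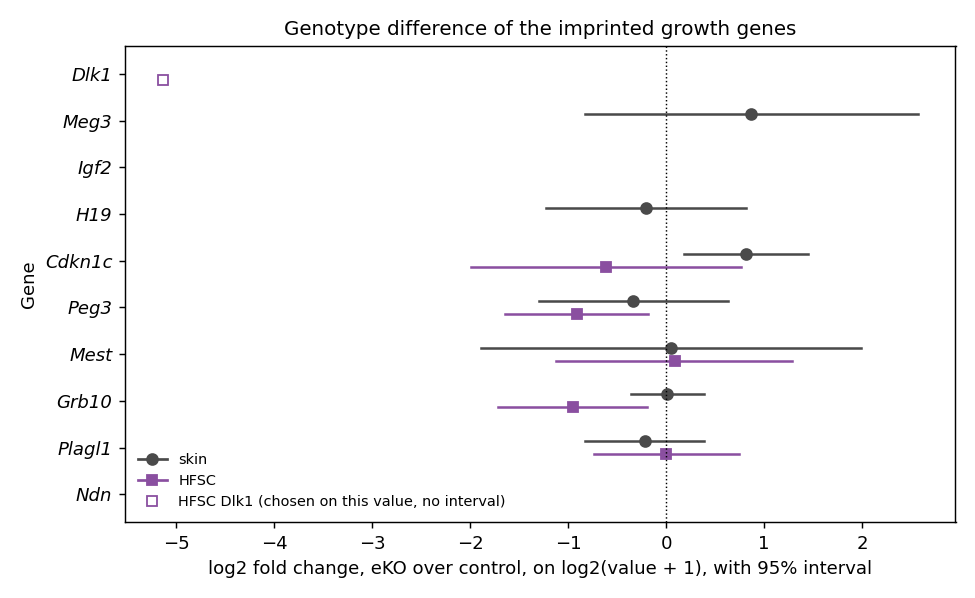
log2 fold change of each tested member, eKO over control, with 95% intervals, in skin (circles) and HFSC (squares); Igf2 and Ndn, listed at 0, have no point. The HFSC point of Dlk1 (open square, a fitted value of -5.14 with no interval) lies far to the left of the other 5, which range from -0.95 for Grb10 to 0.09 for Mest.

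The genotype effect of the members did not differ detectably between the tissues. One limma model over both tables, on genes tested in both, called 0 of 5 members, against 5.62% of 13227 genes, with Dlk1 outside it. In this contrast tissue cannot be told apart from the labelled age (8 months in skin, 18 in HFSC) or from the separate tables. 2 of the 5 had an unadjusted limma p under 0.05, against 2821 of the 13227 genes. edgeR and DESeq2 called 0 of the 5, against 697 and 1275 of the 13227 genes. The difference, HFSC minus skin, was -1.43 for Cdkn1c (SE 0.65, adjusted p = 0.213), whose log2 fold change was 0.82 in skin and -0.61 in HFSC, and -0.97 for Grb10 (SE 0.41, adjusted p = 0.181). With 1 library left out these ran from -1.92 to -0.88 and from -1.27 to -0.55. It was -0.58 for Peg3 (SE 0.64, adjusted p = 0.658), 0.22 for Plagl1 (adjusted p = 0.836) and 0.04 for Mest (adjusted p = 0.992).

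Among 57 imprinted genes outside the 10, 4 passed the threshold in HFSC. There 24 were tested: 2 fell, Sgce and Slc38a4, and 2 rose, Cd81 and Phactr2. 8.74% of all genes fell and 10.7% rose in that comparison, and the median log2 fold change was -0.22 for the 24 and -0.029 for all genes. In skin 41 were tested and limma called 0, against 0.374% of all genes, with a median of 0.07.

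Sgce, the paternally expressed epsilon-sarcoglycan, had the lowest adjusted p of these 4. Its HFSC normalised count was 213, 243 and 242 in control and 87.9, 80.0 and 67.1 in eKO libraries. The groups did not overlap. The log2 fold change was -1.56 (SE 0.23, limma adjusted p = 0.000397), and it was called under 13 of 13 alternatives. In skin its log2 fold change was 0.29 (SE 0.30, limma adjusted p = 0.709), and the difference between tissues, -1.85 (SE 0.42, limma adjusted p = 0.0161), passed the test. So did that of Trappc9, another of the 57, at -0.83 (SE 0.23, limma adjusted p = 0.0478). The log2 fold change of Trappc9 was 0.26 in skin and -0.57 in HFSC. Of all 13227 genes in this contrast, 5.62% passed. Here too, tissue cannot be told apart from the labelled age or the separate tables. Peg10, a paternally expressed retrotransposon-derived neighbour of Sgce named after its values were seen, held 16.0, 4.21 and 14 in control and 0, 1.10 and 0 in eKO HFSC and was too low to be tested.

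Slc38a4, a paternally expressed amino acid transporter, held 1089, 998 and 893 normalised counts in control and 535, 597 and 824 in eKO HFSC. The groups did not overlap, although eKO 3 came close to control 3. The log2 fold change was -0.63 (SE 0.16, limma adjusted p = 0.0148), and the call was lost without control 1 (-0.56, limma adjusted p = 0.0805) or control 2 (-0.62, limma adjusted p = 0.0648). Cd81, a tetraspanin gene imprinted in placenta, rose by 0.43 on the log2 scale (SE 0.13, limma adjusted p = 0.0336). Phactr2, a neighbour of Plagl1, rose by 0.33 (SE 0.10, limma adjusted p = 0.0412). Each of these rises held under 6 of 13 alternatives only, and both were lost without control 1, control 2, control 3 or eKO 1. The rise of Cd81 was also lost without eKO 3 (0.28 to 0.47 over these 5 fits, limma adjusted p up to 0.124), and that of Phactr2 without eKO 2 (0.25 to 0.36, limma adjusted p up to 0.158).

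**Figure D4:**
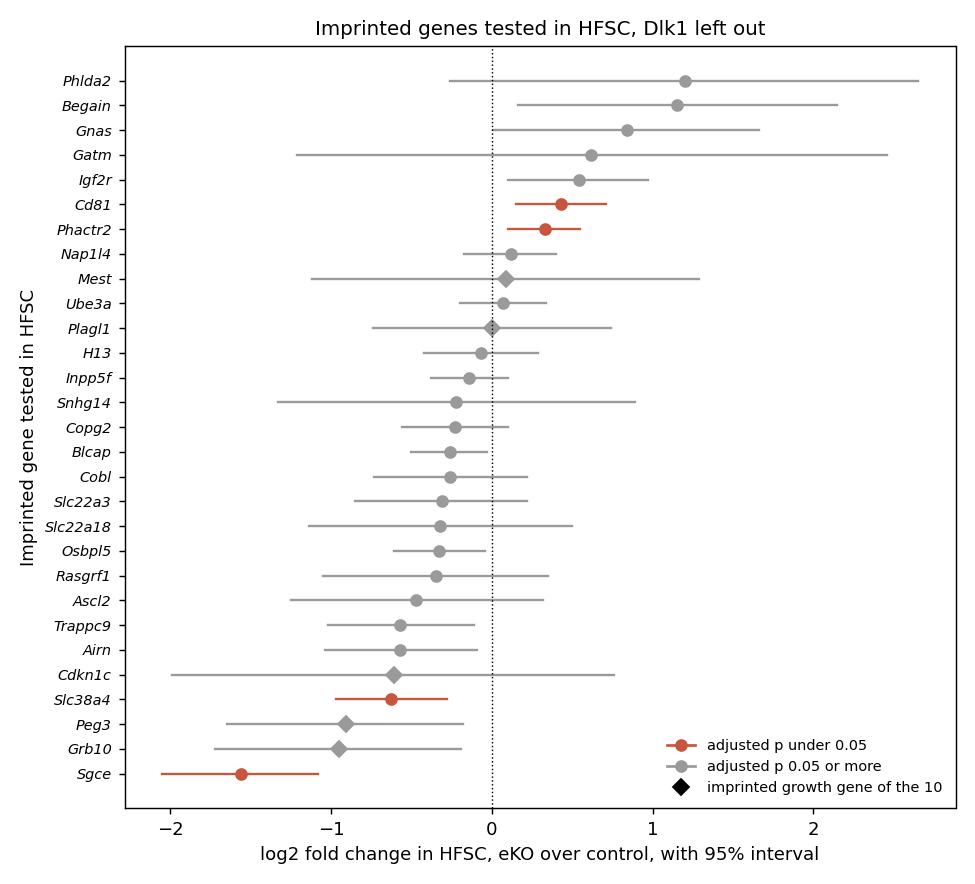
log2 fold change in HFSC, eKO over control, with 95% intervals, for the imprinted genes tested there, without Dlk1; diamonds are members of the 10 and coloured points passed the threshold. Sgce at -1.56 lies lowest, and Grb10 and Peg3 follow it at -0.95 and -0.91 without passing.

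Genes related to the members were read from lists of relatives, IGF receptors with Igf2 mRNA-binding proteins, and imprint maintenance and related factors. Of 9 relatives of the members, 2 rose in HFSC and 0 fell, against 10.7% and 8.74% of all genes; limma called 0 of 9 in skin, against 0.374%. Igf1, the postnatal relative of Igf2, held 0, 3.16 and 3.00 normalised counts in control and 53.8, 18.6 and 99.1 in eKO HFSC. The groups did not overlap (log2 fold change 4.22, SE 0.86, limma adjusted p = 0.00432), and the endothelial sum given above was higher in the same libraries; its part was not tested. Since the controls held few reads this value depends on the pseudocount: it ranged from 2.93 to 4.86 over the alternatives and was called in 13 of 13. Cdkn1a, the kinase inhibitor p21 and a relative of Cdkn1c, was at 294, 305 and 291 in control and 1012, 602 and 784 in eKO HFSC. All 3 eKO libraries were higher, and the log2 change was 1.39 (SE 0.18; adjusted p = 0.000152 with limma). Dlk2, the closest relative of Dlk1, was at 305 ± 22.5 in control and 223 ± 77.9 in eKO HFSC (n = 3 and 3) and did not pass (log2 fold change -0.50, SE 0.23, limma adjusted p = 0.145).

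Of 4 genes of the IGF axis list tested in HFSC, Insr, the insulin receptor, fell, against 8.74% of all genes. The others were the receptor genes Igf1r and Igf2r and Igf2bp3, which encodes an mRNA-binding protein. It held 1006, 1238 and 1189 normalised counts in control and 719, 801 and 846 in eKO libraries. The groups did not overlap, and the log2 fold change was -0.53 (SE 0.12, limma adjusted p = 0.00874); without control 2 the call was lost (-0.47, limma adjusted p = 0.0619). The list of factors that act on imprints holds genes that maintain them, such as Dnmt1, Trim28 and Zfp57. It also holds Tet1, Tet2 and Tet3, which act in removing methylation. Of this list, limma called 0 of 12 tested in HFSC (19.4% of all genes) and 0 of 13 in skin (0.374% of all genes), with medians of -0.12 and -0.07.

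Within skin the members did not rise and fall together past the threshold. Over 15 pairs of members other than Meg3, 0 passed in a permutation test of Pearson's r over 10 libraries, adjusted over all 21 pairs. The highest r was that of Mest with Plagl1, 0.838 (permutation p = 0.00271, adjusted p = 0.0569; Spearman's rho 0.709, permutation p = 0.0266, adjusted p = 0.28). With the 2 libraries most distant from the Mest median left out, r was 0.498, so the relation rests on those libraries. Centred on each genotype's mean it was 0.87 (permutation test, adjusted p = 0.0305), and without control 2 it was 0.924 (permutation test, adjusted p = 0.0105). The adipocyte marker list was highest in the libraries highest for Mest and Plagl1, with a mean log2 value of 12.38 in control 1 and 12.27 in eKO 1 and 7.79 to 11.35 in the others, and the hair matrix list was lowest there (2.65 and 4.17, against 5.29 to 13.17); their part in the relation was not tested.

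The genes whose skin pattern was most like that of a member are given as a description over 10 libraries. For Cdkn1c these were Dact2 (r = 0.93), Bhlhe41 (0.92), Arhgef2 (0.909), CT485616.1 (0.907) and Ppm1h (0.905). For Dlk1, which held 10 reads or fewer in each skin library, they were Ndufs7 (0.814), AC154442.1 (0.801), Gm572 (0.795), Ccdc43 (0.791) and Chrna10 (0.786). Igf2 has no pattern to match, being listed at 0.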

How the data were processed

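The authors deposited 1 table per tissue. The deposited values are a signal that the authors made by dividing gene read counts by 1 size factor per library, as the values themselves show. Per the submitters' processing notes, both tissues were processed against GRCm39, with featureCounts and DESeq2 named for skin only; the annotation, strand setting and treatment of multiply mapped reads are not given in the sources used here. Whole reads were recovered from the steps between low values in all 16 libraries (100% whole within 0.01). Symbols and gene overlaps came from GENCODE M21, which named 94.1% of skin and 91.4% of HFSC rows.

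Genes reaching 10 in at least 5 skin or 3 HFSC libraries (the size of the smaller group) were tested on log2(value + 1) with limma 3.58.1 (R 4.3.3), fitted per tissue over all genes with Benjamini-Hochberg adjustment; the tissue difference was a contrast in 1 fit of 4 group means. Alternatives used edgeR 4.0.16 and DESeq2 1.42.0 on recovered reads, other pseudocounts and filters, a replicate block and leaving out libraries. limma fits were tested on simulated data. Correlations used 100000 permutations. The members and lists were chosen with earlier results of these data known. Named were all members, up to 4 called genes per list (marker lists by counts and sums), the 5 most similar genes for Dlk1, Igf2 and Cdkn1c, and Grk2. HFSC replicates of the same number did not deviate together (correlations -0.06, -0.018 and -0.026), so libraries were treated as unpaired.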

Additional observations from a re-analysis of the deposited data

Results flagged for a closer look

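In 2 groups of 5 skin libraries 1 library stood apart by Dixon's criterion, among 16 groups examined; chance flags about 5% of groups. Cdkn1c in skin control replicate 1 was at 172.2 normalised counts, with the nearest other control at 114.7 (gap 0.735 of the range, critical value 0.71). Mest in the same library was at 947.9, with the nearest control at 262.1 (gap 0.759). Without that library the log2 fold change of Cdkn1c was 0.97 (limma adjusted p = 0.157).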

How the results depend on the processing

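No setting tried called a member in skin or for the tissue difference. In HFSC the count of members called, 0, became 1 under DESeq2 (Grb10) and ranged from 0 to 1 over fits leaving out 1 library. Pairs of members past the threshold in skin, 0, became 1 on genotype-centred values and ranged from 0 to 1 with 1 library left out. The sign of small log2 fold changes turned as follows; none was called. H19 in skin was 0.14 without the libraries with almost no Y-linked reads and -0.65 to 0.10 with 1 library left out. Mest in skin was -0.32 under edgeR with TMM, -0.32 under DESeq2, -0.27 under edgeR with library size only and -0.42 to 0.71 with 1 library left out. Grb10 in skin was -0.0087 under edgeR with TMM, -0.0071 under DESeq2 and -0.11 to 0.12 with 1 library left out. With 1 library left out, Mest in HFSC ranged from -0.39 to 0.64, Plagl1 in HFSC from -0.38 to 0.38, and the tissue difference from -0.62 to 0.59 for Mest and from -0.16 to 0.60 for Plagl1. The log2 fold change of Meg3 in skin was also 0.25 under edgeR with library size only, that of H19 -0.48 and of Peg3 -0.58 under edgeR with TMM and under DESeq2, and with 1 library left out skin Peg3 ran from -0.77 to -0.05 and skin Plagl1 from -0.40 to -0.02. The Peg3 tissue difference was -0.32 under edgeR with TMM and DESeq2 and -0.87 to -0.15 with 1 library left out. The cause was not tested. The HFSC replicate block called 0 members and 2696 genes, against 2673 without it, and changed no member's call. Over all skin genes limma called 62; the count was 656 under DESeq2, 31 under edgeR with library size only, 37 with no filter, 158 with the hair matrix list as a covariate, 0 without the libraries with almost no Y-linked reads (1790 at an unadjusted p under 0.05) and 10 to 57 with 1 library left out. Over all genes the tissue difference gave 743 calls with limma and 1275 with DESeq2, and HFSC gave 1519 to 2620 with 1 library left out. Dlk1 in skin and H19 in HFSC held too few reads to pass the filter of the main limma fit.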

Other observations

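Relations of the members with other genes of their own locus, and with marker lists, were computed over the 10 skin libraries after the values had been seen, as families of 20 and 91. Mest followed its imprinted neighbour Klf14, a maternally expressed Krüppel-like factor. Klf14 was at 83.2, 1.69, 18.8, 2.80 and 5.70 normalised counts in control and 66.8, 30.4, 2.57, 0 and 32.2 in eKO skin, highest in control 1 and eKO 1, the libraries highest for Mest as well (r = 0.956, permutation p = 5e-05, adjusted p = 0.0008; rho = 0.915, permutation p = 0.00064; r = 0.945 without the 2 libraries farthest from the median). Copg2, a coat protein subunit gene, also went with Mest (r = 0.878, permutation p = 0.00057, adjusted p = 0.00248; rho = 0.879, permutation p = 0.00149; r = 0.763 without the 2 farthest). Exons of Copg2 and Mest overlap (23.1% of the exon bases of Mest lie within exons of other genes), and how reads there were assigned is not given in the sources used here. The adipocyte list had r = 0.782 with Mest (permutation p = 0.00742, adjusted p = 0.0965; 0.557 without the 2 farthest). Centred on genotype means, the adipocyte list had r = 0.819 with Mest and 0.82 with Plagl1 (both permutation adjusted p = 0.039), and the hair matrix list had r = -0.849 with Plagl1 (permutation adjusted p = 0.0369); without the 2 farthest these were 0.58, 0.575 and -0.653. Grb10 went with the mural cell list, genes of pericytes and vascular smooth muscle (r = 0.921, permutation p = 0.00022, adjusted p = 0.01; rho = 0.927, permutation p = 0.00039; r = 0.773 without the 2 farthest). It came close with the adipocyte (r = 0.83) and hair matrix (r = -0.824) lists, both at permutation adjusted p = 0.0517. Centred on genotype means, Grb10 passed with the mural (0.933), adipocyte (0.866), leukocyte (0.822) and hair matrix (-0.825) lists. Their permutation adjusted p-values were 0.0109, 0.0369, 0.039 and 0.039, so the relation was not particular to the mural list.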
